A study of Mus musculus with 8 samples.

Results

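Complement is a cascade of plasma proteins, most of them made by hepatocytes, that marks and damages microbes and injured cells. The classical pathway starts from C1q and the proteases C1r and C1s, and the lectin pathway from mannose-binding lectins, ficolins and collectins with the MASP proteases. Both cleave C4 and C2 to build an enzyme that splits C3, and the alternative pathway amplifies that step with factor B, factor D and properdin. Splitting C5 then starts assembly of C6, C7, C8 and C9 into a membrane pore, while plasma and membrane regulators hold the cascade in check. C/EBPα, encoded by Cebpa, is a transcription factor of differentiated hepatocytes.

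The module described here holds 36 complement genes, chosen by name with earlier results of these data known, of the 55450 genes in the table. They comprise 6 genes of the classical pathway and C4 and C2, 7 of the lectin pathway, 4 of C3 and the alternative pathway, 7 of the terminal pathway, 6 soluble regulators, 4 membrane regulators and 2 anaphylatoxin receptors. All 36 passed the filter on low counts, as 13303 genes did in all.

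RNA was measured in whole liver of 10-week-old mice by polyA RNA-seq. The control group was 4 livers of Cebpa flox/flox mice that the labels mark Cre-, and the knockout group was 4 livers of hepatocyte Cebpa knockout mice that they mark Cre+. Mice of both groups were fed liquid diet throughout, without ethanol for 5 days and with 5% (vol/vol) ethanol over the next 4 weeks, so every liver had been exposed to ethanol, and livers without ethanol were not analysed here. The promoter that drives Cre is not given in the sources used here. The labels name hepatocytes as the knockout cells, and Cebpa in the other liver cells of the samples was not measured separately. The sex of the mice is not given in the labels. The labels number the livers of each group but do not state that each came from a separate mouse, so the p-values measure the spread between these samples.

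Libraries held 21048350 to 28148744 estimated read counts assigned to genes. Cebpa checked the labels: it was at 319.9, 263.6, 269.3 and 320.3 CPM (counts scaled to library size) in controls 1 to 4 and at 5.44, 9.26, 7.31 and 6.24 CPM across knockout livers 1 to 4. The knockout over control log2 fold change of Cebpa came to -5.38, with an SE of 0.18 and an edgeR adjusted p of 4.78e-07. All 8 hepatocyte markers listed were detected, with a summed level of 65374 to 88249 TPM (scaled to transcript length and library size) in controls and 83724 to 88887 in knockouts, most of it Alb. Of these markers 6 of 8 were negative (median -0.23) and Serpina1a fell (log2 fold change -1.50, edgeR adjusted p = 0.00364). Over the whole table, 274 genes passed the test (adjusted p under 0.05), 113 higher and 161 lower in the knockout. Scaling by library size alone gave 161 higher and 115 lower, and a test on log2(TPM + 1) gave 151 higher and 86 lower. Control 2 stood apart in a list of 14 acute phase genes, whose summed level was 49479 TPM there, 6579 to 9152 TPM in the other controls and 5062 to 7121 TPM in the knockouts. Of these genes 1 passed the test and all 14 had a negative log2 fold change (median -1.30), against 13 of 14 and a median of -0.70 without control 2. Cholangiocyte markers were higher in the knockout, with 4 of 7 tested passing (0 to 3 with 1 liver left out) and a summed level of 25.8 to 66.1 TPM in controls and 121.6 to 418.6 TPM in knockouts, most of it Spp1. The part of either list in the complement values was not tested. Because whole tissue was sequenced, fewer cells of a type and less RNA per cell cannot be told apart.

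Of the 36 complement genes, 2 fell in the knockout and none rose, where 2.06% of all genes tested passed (1.21% lower and 0.849% higher). The 2 were Susd4, a membrane protein that inhibits complement, and C4a, a close copy of the C4 gene. At an unadjusted p under 0.05, 13 members were lower and 5 higher, which is 36.1% and 13.9% of the members against 8.9% and 9.61% of all genes. In either direction this was 18 of 36 members, against 2462 of 13303 genes (18.5%). Of 22 other complement genes tested, 3 were lower and 4 higher at that unadjusted p. Both lists were chosen with earlier results of these data known, so these shares only describe them. The log2 fold change was negative for 24 of 36 members and had a median of -0.19, against 49.3% of all genes and a median of 0.0036. Under library-size scaling 24 members were negative with a median of -0.12, and on log2(TPM + 1) 23 were, with a median of -0.063. Without control 2, 23 were negative, with a median of -0.092. With DESeq2 in place of edgeR, 9 members passed, 8 lower and 1 higher, where 6.45% of all genes did (3.38% lower and 3.07% higher). These 9 were Susd4, C4a, C4b, Hc, C6, C4bp, Serping1 and Cd59a among the lower, and C7 as the higher one. With limma on log2(TPM + 1), C4a, Susd4 and C7 passed, where 1.78% of all genes did.

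**Figure D1:**
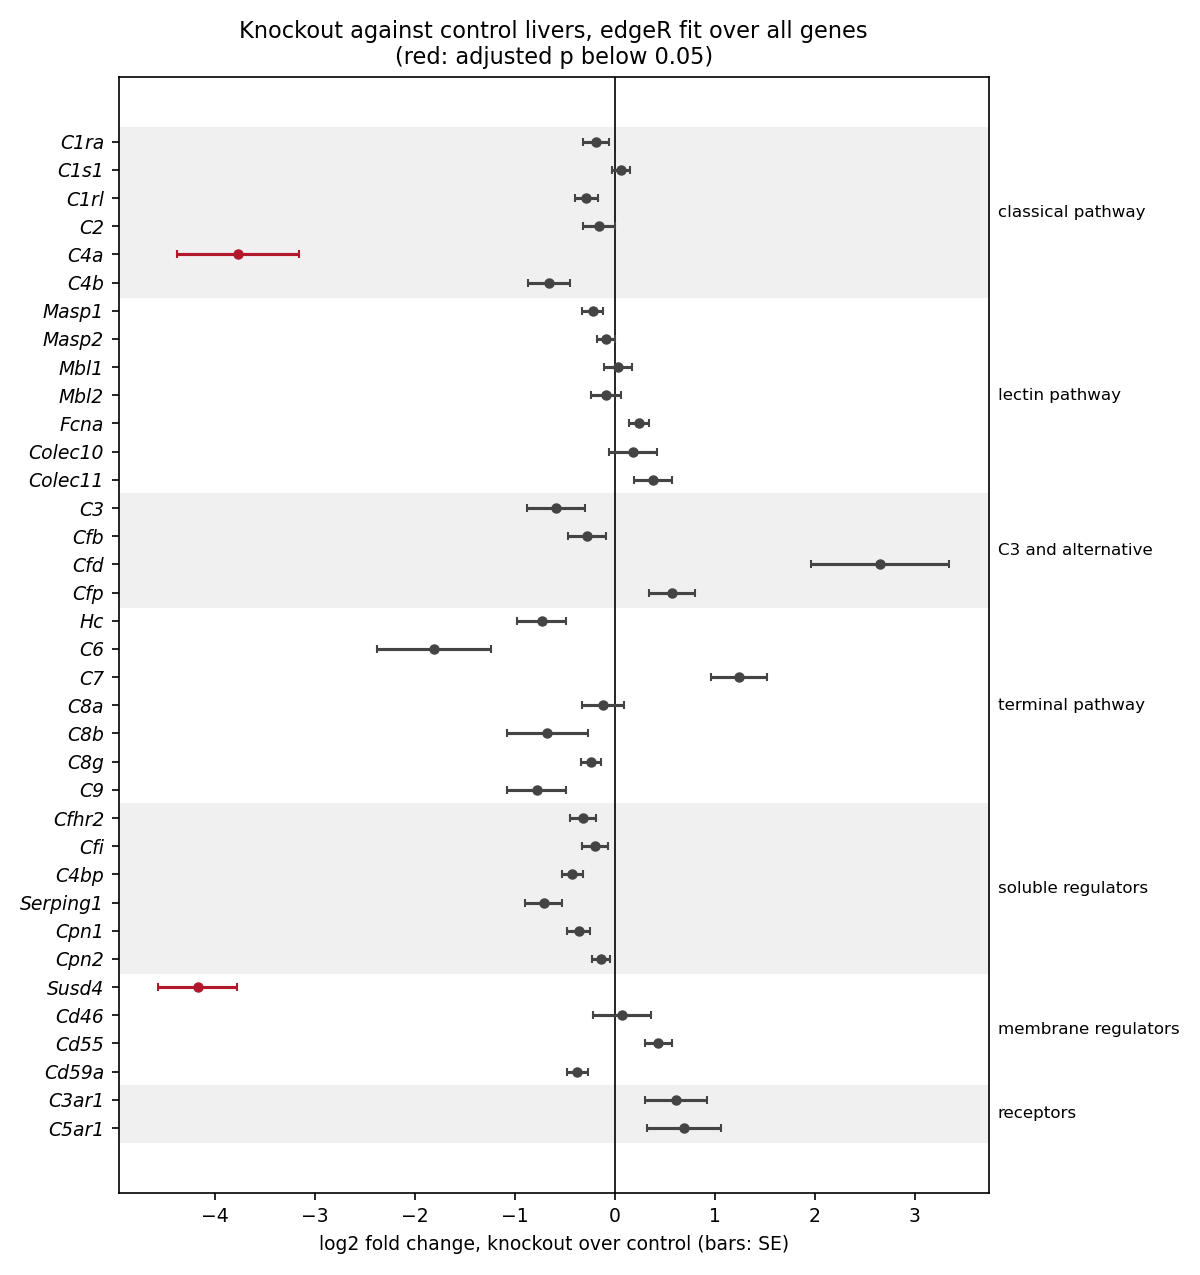
Log2 fold change, knockout over control, of the 36 complement genes grouped by role, with bars of 1 SE from edgeR on 4 livers per group. Susd4 (-4.17) and C4a (-3.77) lie far to the left of the other members, and Cfd (2.65) and C7 (1.24) lie farthest to the right without passing the test.

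The members spanned a wide range of abundance. On the length-corrected TPM scale, averaged over the 8 livers, C3 was the most abundant at 1743 TPM, followed by Cfb at 885.5, Serping1 at 496.0, Cfhr2 at 458.8 and C4b at 448.1 TPM. The least abundant were Cd46 at 0.189, C5ar1 at 0.425, C3ar1 at 0.689 and C7 at 1.23 TPM. The summed level of all 36 genes was 8070, 12475, 7167 and 6874 TPM in controls 1 to 4 and 6897, 7080, 6768 and 7561 TPM in knockouts 1 to 4. Control 2 stood far above the rest, and the remaining controls overlapped the knockouts. The means were 8646 ± 2603 TPM (SD, n = 4) and 7076 ± 347.5 TPM (SD, n = 4), which did not differ beyond the spread (exact permutation test, two-sided, p = 0.229). The smallest p that 4 livers against 4 allow is 0.0286.

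**Figure D2:**
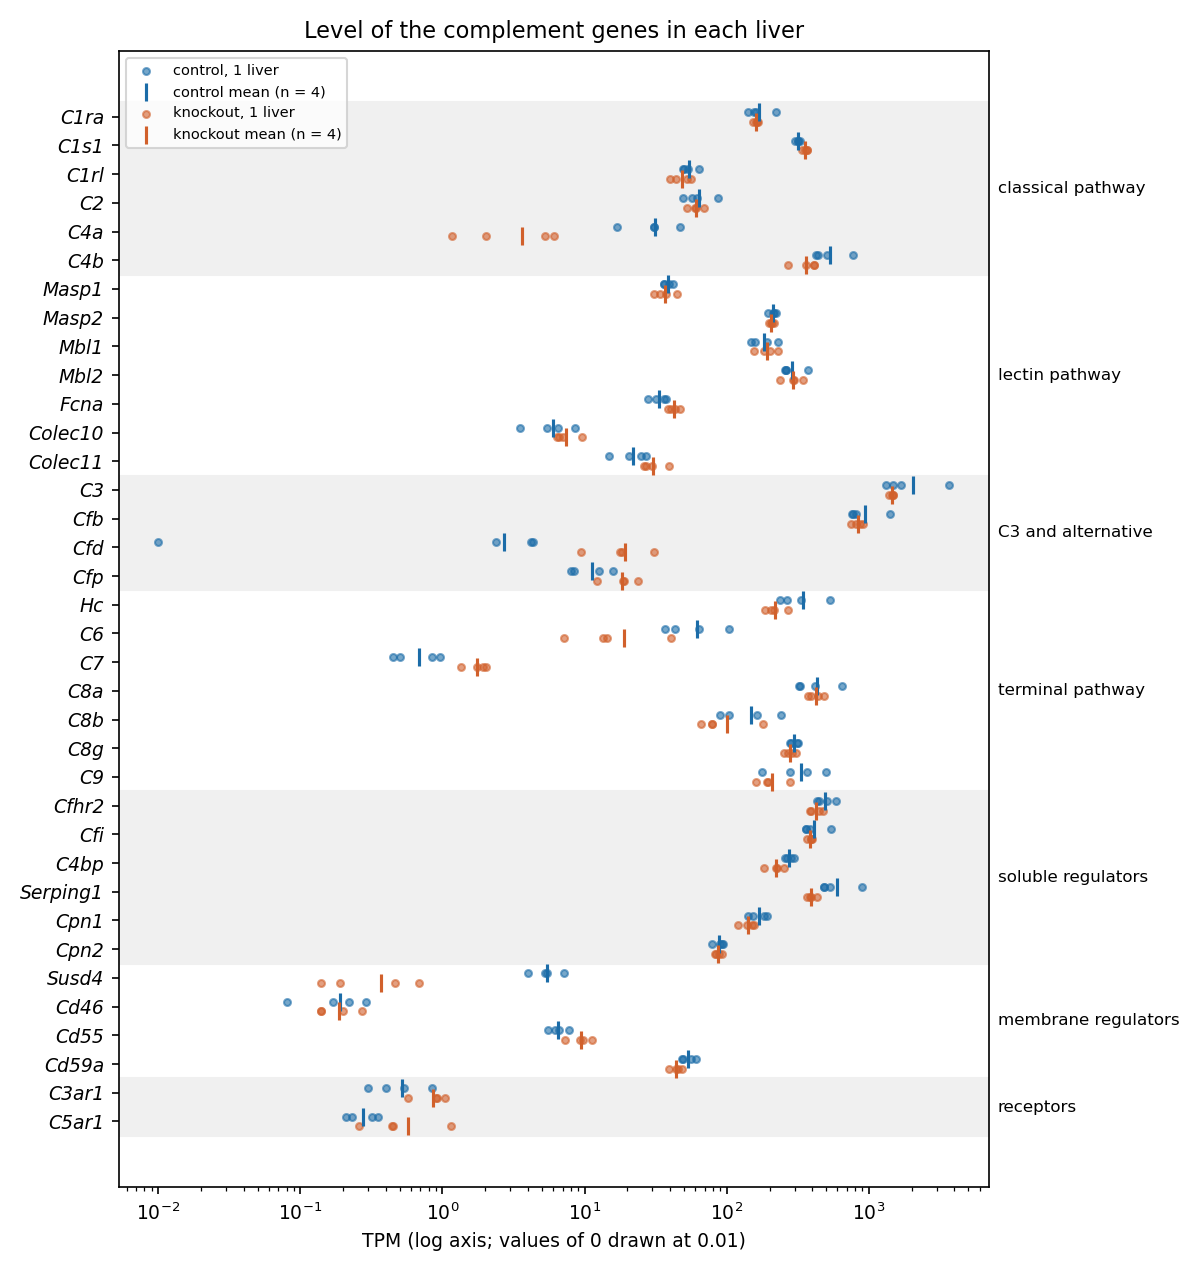
TPM of each complement gene on a log axis, with a point for each liver, a vertical mark for the group mean, and the 0 of Cfd in control 2 drawn at the left edge. The genes span from under 1 TPM (Cd46, C5ar1, C3ar1) to over 1000 TPM (C3), and the points of the 2 groups separate widely for Susd4 and C4a.

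Susd4 encodes a sushi domain protein of the membrane that restrains C3 convertase assembly. It lies on chromosome 1 at chr1:182763860-182896591 (mm10, plus strand). Controls 1 to 4 were at 11.3, 15.0, 7.79 and 11.4 CPM, and knockouts 1 to 4 at 0.404, 0.237, 0.594 and 1.19 CPM. Every knockout lay below every control, and knockout 4 was the highest of the knockouts. Susd4 fell 18.0-fold (log2 fold change -4.17, SE 0.39, edgeR adjusted p = 0.00119), with 1008 counts in the 4 controls together and 63 in the 4 knockouts. It passed when each liver was left out in turn (adjusted p 0.000302 to 0.00957). Without knockout 4 the fall was 27.7-fold (log2 fold change -4.79). At 5.45 TPM in controls it was a rare transcript beside the plasma components.

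The other membrane regulators did not pass. Cd59a, which blocks C9 from joining the pore, was at 68.7, 51.7, 58.6 and 54.3 CPM across the control livers, against 47.5, 46.9, 45.4 and 40.3 CPM across the knockout livers. The groups did not overlap in CPM but did in TPM, and the log2 fold change of -0.37 (SE 0.10) had an edgeR adjusted p of 0.0951. Summed with its copy Cd59b, the value was -0.36 (adjusted p = 0.112). Cd55, which speeds decay of the C3 convertase, was at 9.21 to 12.2 CPM across the control livers, against 11.5 to 16.9 CPM across the knockout livers (log2 fold change 0.44, SE 0.14, adjusted p = 0.135). Cd46, a cofactor for factor I that in mice is known mainly from testis, had 52 counts in the 4 controls together and 60 in the 4 knockouts, too few to show a modest difference. A transcript on its opposite strand, A330023F24Rik, had 536 counts over the 8 livers.

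The start region of Susd4 is shown because this gene had the largest change of the module. RefSeq (GRCm38.p6) gives 2 start sites, and each 300-base window around a start is given on the plus strand, at chr1:182763966-182764265 and chr1:182764646-182764945. Both strands were searched for TTGCGCAA, a symmetrical C/EBP site, and for the looser TTNNGNAA, which contains it. Neither was found in either window, so the sequences hold no capitals.

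Susd4 start 1: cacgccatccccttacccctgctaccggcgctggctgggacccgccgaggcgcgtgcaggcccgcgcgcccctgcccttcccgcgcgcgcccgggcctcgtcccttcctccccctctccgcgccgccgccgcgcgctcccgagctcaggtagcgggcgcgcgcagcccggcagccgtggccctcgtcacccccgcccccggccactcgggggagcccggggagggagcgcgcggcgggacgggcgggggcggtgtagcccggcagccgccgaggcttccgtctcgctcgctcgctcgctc

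Susd4 start 2: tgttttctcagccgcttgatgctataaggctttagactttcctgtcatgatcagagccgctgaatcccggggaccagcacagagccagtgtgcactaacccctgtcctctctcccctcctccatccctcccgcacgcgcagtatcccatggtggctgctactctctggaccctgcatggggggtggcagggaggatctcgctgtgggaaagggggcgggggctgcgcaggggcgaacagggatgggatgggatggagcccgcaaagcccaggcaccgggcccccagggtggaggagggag

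The 300-base table matched 28 of the 36 members with 31 windows, with no entry for C2, C4a, C4b, Cfb, Cfi, Colec10, Masp1 and Serping1. TTGCGCAA was in none of the 28 members, against 0.183% of all 32851 windows. TTNNGNAA was in 16 of the 31 member windows, for 15 of the 28 genes, against 40.7% of all windows of that length.

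C4 is cleaved by the classical and lectin proteases, and its larger fragment binds to the target surface. Mice carry 2 copies near each other in the major histocompatibility region of chromosome 17: C4b at chr17:34728380-34743882 and C4a, also called sex-limited protein, at chr17:34809092-34823464 (mm10, both minus strand). The GENCODE M21 annotation gives C4a as a processed transcript and C4b as protein coding. C4a was at 62.1, 18.6, 35.5 and 36.6 CPM across control livers 1 to 4, against 3.82, 1.03, 1.10 and 5.08 CPM across knockout livers 1 to 4. No knockout reached the lowest control. C4a fell 13.6-fold (log2 fold change -3.77, SE 0.61, edgeR adjusted p = 0.0291). With 1 liver left out, C4a passed in 2 of 8 fits, and its adjusted p ranged from 0.0299 to 0.0831, while the log2 fold change stayed between -4.28 and -3.44. It did not pass without control 1, 3 or 4, or without knockout 1, 2 or 3, nor in the fit with no filter on low counts. The sex of the mice is not given in the labels, and its part in the C4a values was not tested.

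C4b, the copy that provides most C4 transcript, was at 1535, 2357, 1251 and 1360 CPM across the control livers, against 1181, 988.0, 793.6 and 1165 CPM across the knockout livers. The groups did not overlap, and the log2 fold change of -0.66 (SE 0.21) did not pass (edgeR adjusted p = 0.141). Control 2 was the highest of the controls for C4b and the lowest for C4a. C4a made up 8.51, 2.13, 6.83 and 6.60% of the C4 transcripts (TPM of both copies) in controls 1 to 4 and 1.28, 0.551, 0.429 and 1.45% in knockouts 1 to 4. The sum of both copies was 1598, 2376, 1286 and 1397 CPM across the control livers, against 1185, 989.0, 794.7 and 1170 CPM across the knockout livers. For the sum, the log2 fold change came to -0.69 (SE 0.21, edgeR adjusted p = 0.123), and with 4 livers a group the exact two-sided permutation p was 0.0286.

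**Figure D3:**
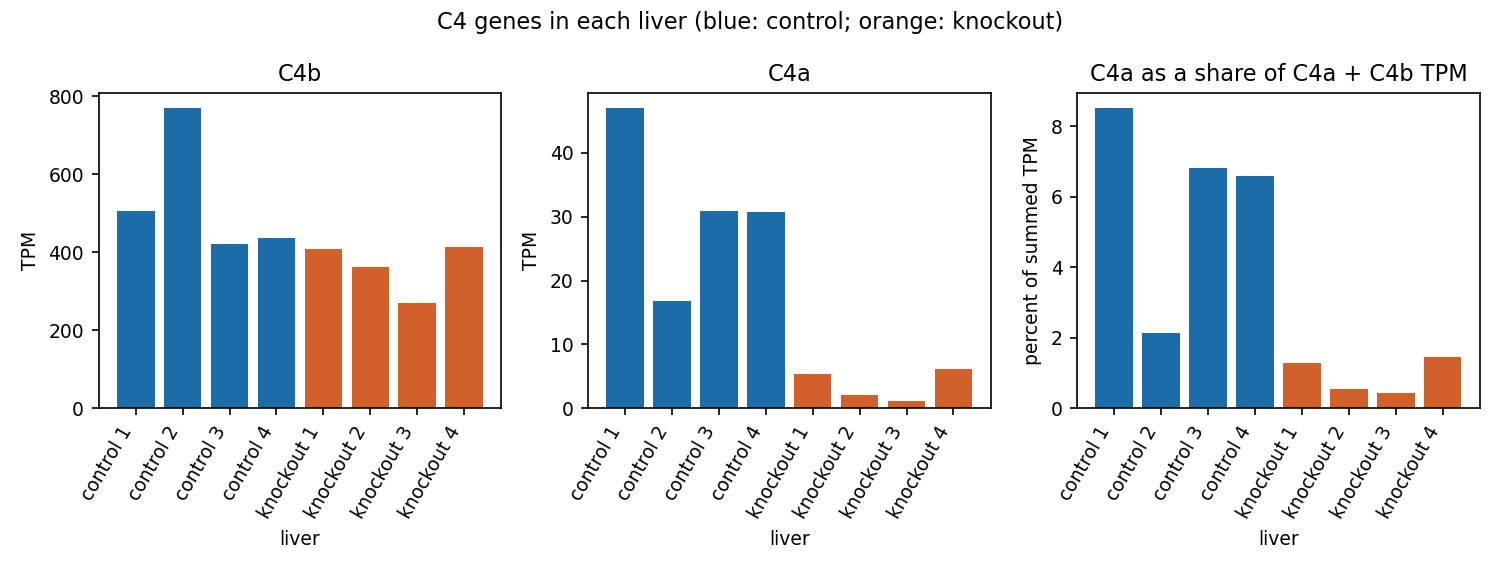
C4a and C4b levels (TPM) and the share of C4a in their sum (percent) in each liver, with control livers in blue and knockout livers in orange. C4a and its share were lower in every knockout than in every control, and C4b showed a smaller gap.

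The split of reads between the copies rests on the bases that differ between them. Their longest spliced transcripts, 5371 and 5379 bases, were identical at 96.1% of 5367 aligned positions, and the longest identical run was 433 bases. Of all 50-base stretches of C4a, 35.2% occur in C4b, and of 100-base stretches 16.5%, so reads from those stretches cannot be placed by sequence alone. The level of each copy is therefore uncertain, while the sum of both does not depend on the split. The 90-base window with the most differences lies in exon 21 of both, at chr17:34816086-34816175 for C4a and chr17:34735430-34735519 for C4b, and is shown 5′ to 3′ on the minus strand because it tells the copies apart. Capitals mark the 14 bases that differ.

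C4a: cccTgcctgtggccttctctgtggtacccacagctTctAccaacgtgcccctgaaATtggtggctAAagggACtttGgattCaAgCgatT

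C4b: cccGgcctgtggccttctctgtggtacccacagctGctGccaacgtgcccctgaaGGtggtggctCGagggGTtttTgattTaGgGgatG

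The remaining genes of the classical pathway differed less. C1ra, whose product activates C1s, was at 308.8 to 485.7 CPM across the control livers, against 317.6 to 352.2 CPM across the knockout livers (log2 fold change -0.19, edgeR adjusted p = 0.482, and -0.050 without control 2). C1s1, which cleaves C4 and C2, was at 554.9 to 638.6 CPM across the control livers and 603.8 to 659.6 CPM across the knockout livers (log2 fold change 0.06, adjusted p = 0.733). C1rl, a C1r-like protease, had a log2 fold change of -0.28 and did not pass. C2, the protease part of the C3 convertase, was at -0.16 and did not pass, with the sign turned without control 2. C1rl, C1ra and C1s1 lie side by side within chr6:124493113-124542359, and Cfb and C2 lie beside the C4 copies within chr17:34856374-34898265. C2 and Cfb share a readthrough gene model on the same strand, Gm20547, with 448.4 counts over the 8 livers.

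The 7 lectin pathway genes had log2 fold changes from -0.22 (Masp1) to 0.38 (Colec11), and none passed. Mbl2, a mannose-binding lectin and the most abundant of them, was at 195.7, 263.5, 183.2 and 188.6 CPM across the control livers, against 234.3, 188.4, 204.0 and 156.6 CPM across the knockout livers. The groups overlapped (log2 fold change -0.09, edgeR adjusted p = 0.793), and the sign differed on log2(TPM + 1). Fcna, a ficolin made by macrophages, was at 26.9, 32.6, 34.3 and 30.5 CPM across the control livers, against 34.5, 34.1, 42.2 and 36.6 CPM across the knockout livers. The difference for Fcna was 0.24 on the log2 scale (SE 0.10, edgeR adjusted p = 0.234), the smallest p of these 7. The proteases Masp1 and Masp2 were at 143.5 ± 9.67 and 210.1 ± 15.1 CPM (SD, n = 4) in controls and 123.1 ± 17.0 and 197.7 ± 12.9 CPM (SD, n = 4) in knockouts. Mbl1, the other mannose-binding lectin, was at 145.0 to 211.1 CPM across the control livers and 153.4 to 216.4 CPM across the knockout livers. The collectins Colec10 and Colec11 had log2 fold changes of 0.18 and 0.38 (adjusted p = 0.716 and 0.316), and control 2 was the lowest of the 8 livers for both, at 12.0 and 13.6 CPM. Part of Masp2 overlaps Tardbp on the opposite strand, and part of Masp1 overlaps Rtp4, and the strand setting of the counting is not given in the sources used here.

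C3, on which all 3 pathways converge, was at 6632, 14114, 5630 and 5278 CPM across control livers 1 to 4, against 5210, 4923, 5627 and 5299 CPM across knockout livers 1 to 4. Control 2 was the highest of all livers, and the lowest control lay within the range of the knockouts. C3 had a log2 fold change of -0.59 (SE 0.29, adjusted p = 0.319 with edgeR), and of -0.15 without control 2. Cfb, factor B, was at 1041 to 1939 CPM across the control livers, against 987.5 to 1169 CPM across the knockout livers (log2 fold change -0.28, adjusted p = 0.473, and -0.026 without control 2). The start region of C3 at chr17:57228087-57228386 (RefSeq GRCm38.p6, minus strand, 5′ to 3′) held TTNNGNAA 3 times, shown in capitals, close together. It is shown because C3 was the most abundant member.

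C3 start: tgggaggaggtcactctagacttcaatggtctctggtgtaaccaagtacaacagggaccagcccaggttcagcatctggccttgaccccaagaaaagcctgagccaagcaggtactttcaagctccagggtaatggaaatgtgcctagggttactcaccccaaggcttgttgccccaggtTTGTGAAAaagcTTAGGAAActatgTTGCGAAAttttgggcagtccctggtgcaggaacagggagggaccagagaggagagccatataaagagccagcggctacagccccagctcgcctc

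Cfd, factor D or adipsin, is the protease that cleaves factor B and is best known from fat cells. It was at 1.40, 0, 2.32 and 2.52 CPM across the control livers, against 5.08, 15.5, 10.1 and 9.14 CPM across the knockout livers. The 0 counts of control 2 allow up to 3 counts, or 0.146 CPM, for counting error only. Every knockout was above every control, as in 5.54% of all genes, but the log2 fold change of 2.65 (SE 0.69) did not pass (edgeR adjusted p = 0.104). Without control 2 it was 2.25, with an adjusted p of 0.0343. Of 6 adipocyte markers, Adipoq, Plin1, Lep and Retn were at 0 in all 8 livers, Cidec and Fabp4 were tested without passing, and the summed level was 11.7 to 42.8 TPM in controls and 30.7 to 87.5 TPM in knockouts. Cfp, properdin, which stabilises the alternative convertase, was at 9.24 to 17.2 CPM across the control livers, against 13.2 to 22.5 CPM across the knockout livers (log2 fold change 0.57, adjusted p = 0.231).

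The terminal pathway had the lowest role median, -0.67, with 6 of 7 genes negative and none passing. Without control 2 the median was -0.37, with 5 of 7 negative. C7, which anchors the forming pore in the membrane, was the exception in sign. It was at 1.99, 0.970, 1.64 and 0.911 CPM across the control livers, against 3.82, 2.37, 3.75 and 3.17 CPM across the knockout livers. The groups did not overlap, with a log2 fold change of 1.24 (SE 0.28) that just missed the threshold (edgeR adjusted p = 0.0558). It passed with DESeq2 (adjusted p = 0.00165), on log2(TPM + 1) with limma (0.0313) and under library-size scaling (0.0443), and in 0 of 8 fits with 1 liver left out (0.0504 to 0.138), with 124 counts in the 4 controls together and 320 in the 4 knockouts. A list of 10 stellate cell and fibroblast genes, summed, was at 123.5 to 249.3 TPM in controls and 230.7 to 365.1 TPM in knockouts, with all 10 positive, none passing and a median of 0.38 (0.19 without control 2). Its part in the C7 values was not tested.

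C8a, the most abundant terminal gene, encodes a subunit of C8, which inserts into the membrane. It was at 907.9, 1341, 656.3 and 698.9 CPM across the control livers, against 749.2, 806.6, 803.1 and 956.0 CPM across the knockout livers. The groups overlapped (log2 fold change -0.12, edgeR adjusted p = 0.793), with the sign turned on log2(TPM + 1). C8b, its neighbour on chromosome 4, was at 275.5, 384.2, 167.2 and 150.5 CPM across the control livers, against 103.0, 113.8, 125.7 and 269.6 CPM across the knockout livers (log2 fold change -0.67, adjusted p = 0.419). C8g, the third chain, overlaps Fbxw5 on the opposite strand and had a log2 fold change of -0.24 (adjusted p = 0.252).

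C6 and Hc, like C8b, are given in full outside the rule for named genes, a choice made with their values in view. C6, which binds C5b, was at 135.4, 201.7, 74.0 and 89.9 CPM across the control livers, against 13.6, 24.6, 29.8 and 74.5 CPM across the knockout livers. Knockout 4 alone lay within the range of the controls. C6 had a log2 fold change of -1.81 (SE 0.57, adjusted p = 0.163 with edgeR), and without knockout 4 -2.47 (adjusted p = 0.0447). Hc, which encodes C5, was at 1021, 1667, 783.7 and 781.8 CPM across the control livers, against 638.1, 575.7, 552.7 and 795.6 CPM across the knockout livers, again with knockout 4 the highest (log2 fold change -0.73, SE 0.25, adjusted p = 0.159). C9, which forms the wall of the pore, had a log2 fold change of -0.78 (SE 0.30, adjusted p = 0.211), with controls at 253.0 to 707.7 CPM and knockouts at 223.6 to 363.5 CPM. C6, C7 and C9 lie on chromosome 15 within chr15:4727175-6498751, and C7, with its positive value, sits between the 2 others, with negative values.

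The start region of C7 at chr15:5063724-5064023 (RefSeq GRCm38.p6, minus strand, 5′ to 3′) is shown because C7 was the sole terminal gene with a positive value. It held TTNNGNAA on either strand at 2 places, in capitals.

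C7 start: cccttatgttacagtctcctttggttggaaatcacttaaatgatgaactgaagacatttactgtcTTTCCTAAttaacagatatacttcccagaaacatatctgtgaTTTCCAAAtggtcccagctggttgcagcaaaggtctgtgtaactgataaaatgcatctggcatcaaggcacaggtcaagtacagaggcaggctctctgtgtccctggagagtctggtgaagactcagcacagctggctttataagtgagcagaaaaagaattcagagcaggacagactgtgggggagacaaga

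The 6 soluble regulators all had negative log2 fold changes (median -0.34), and none passed with edgeR. In 4 of them every knockout was below every control in CPM, where 5.92% of all genes showed this. In TPM the groups overlapped for Cpn1 (controls from 142.1, knockouts up to 156.3) and Cfhr2 (controls from 429.8, knockouts up to 475.1). C4bp, the C4b-binding protein that removes the classical convertase, was at 478.1, 501.3, 496.4 and 471.3 CPM across the control livers, against 418.6, 358.3, 311.5 and 363.2 CPM across the knockout livers. The controls were tight and the groups did not overlap (log2 fold change -0.42, SE 0.10, edgeR adjusted p = 0.0685). Serping1, the C1 inhibitor, was at 691.4, 1082, 588.9 and 616.1 CPM across the control livers, against 452.1, 430.9, 443.1 and 492.5 CPM across the knockout livers. It too did not overlap (log2 fold change -0.71, SE 0.18, adjusted p = 0.0836), and without control 2 it was -0.48 and passed (adjusted p = 0.0418).

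Cpn1, the catalytic chain of carboxypeptidase N, which inactivates the anaphylatoxins, was at 194.6, 235.9, 198.8 and 257.5 CPM across the control livers, against 187.1, 181.5, 151.9 and 169.4 CPM across the knockout livers (log2 fold change -0.36, SE 0.11, edgeR adjusted p = 0.134). Its partner chain Cpn2 had a log2 fold change of -0.14. Cfhr2, a soluble plasma regulator, was at 597.0, 645.4, 497.5 and 495.0 CPM across the control livers, against 423.6, 386.9, 487.5 and 493.9 CPM across the knockout livers. The groups of Cfhr2 were separated by a narrow margin between control 4 and knockout 4 (log2 fold change -0.32, SE 0.13, adjusted p = 0.214), and its reads can be shared with similar genes of its family. Cfi, factor I, which cleaves C3b and C4b, was at 534.5 to 799.1 CPM across the control livers, against 530.4 to 559.1 CPM across the knockout livers (log2 fold change -0.20, adjusted p = 0.450).

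**Figure D4:**
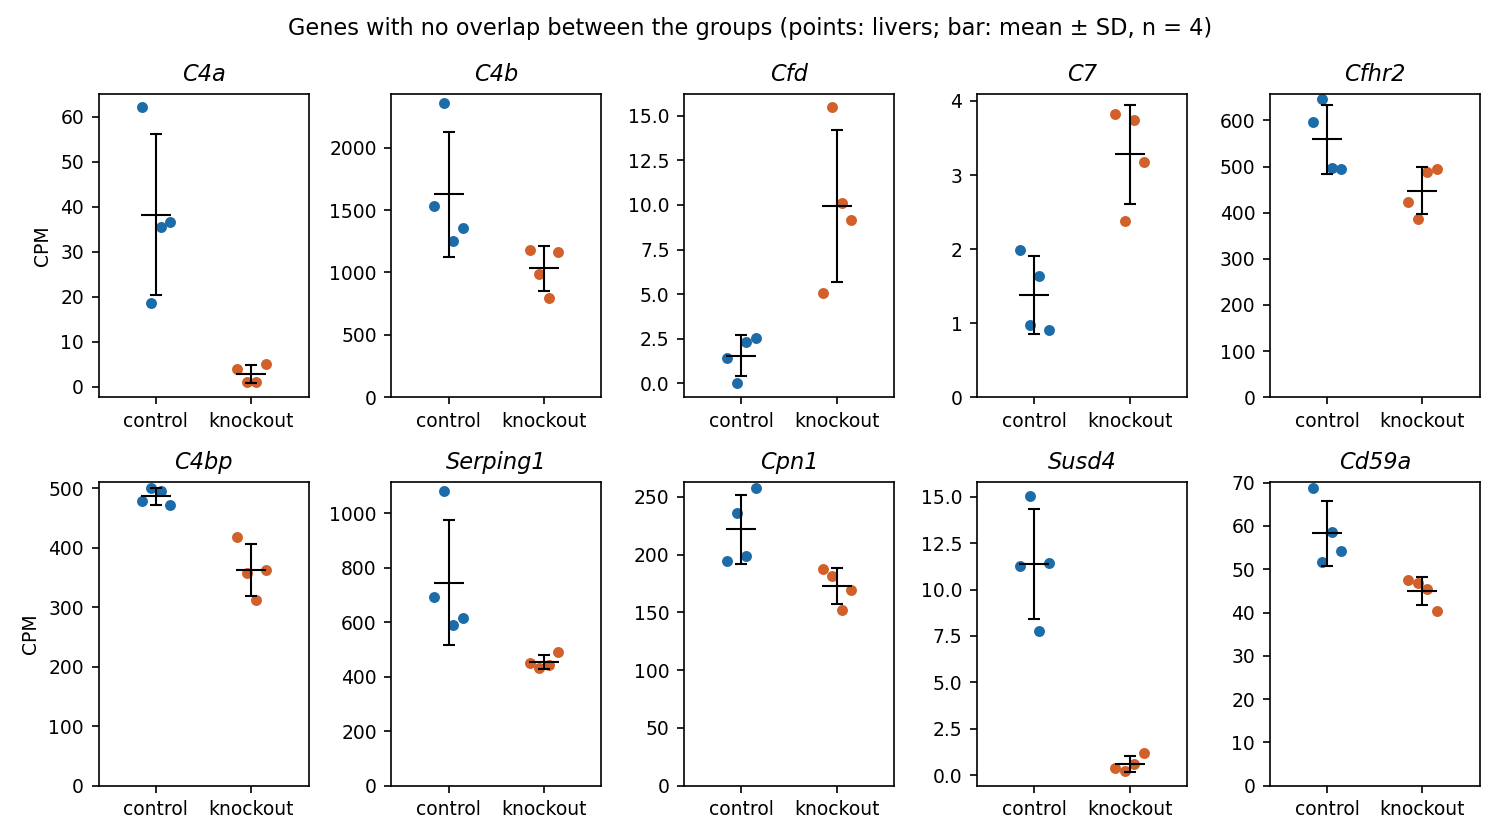
CPM in each liver (points) with the mean and SD of 4 livers (bars), on a linear axis of its own for each complement gene whose groups did not overlap: C4a, C4b, C4bp, Serping1, Cpn1, Cfhr2, Cd59a and Susd4 lower in the knockout, Cfd and C7 higher. The gap was wide for Susd4 and C4a and narrow for Cfhr2.

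In all, 8 members were lower without overlap in CPM (22.2% of members, 5.92% of all genes) and 2 were higher (5.56% of members, 5.54% of all genes). In TPM the groups overlapped for Cpn1, Cfhr2 and Cd59a, so their separation depended on the scaling.

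The receptors for the anaphylatoxins, which sit on myeloid cells, were near the low end of the counts. C3ar1 was at 1.35, 1.75, 2.74 and 0.998 CPM across the control livers, against 1.80, 3.01, 2.88 and 2.76 CPM across the knockout livers (log2 fold change 0.61, SE 0.31, edgeR adjusted p = 0.323). C5ar1 was at 0.406, 0.631, 0.590 and 0.434 CPM across the control livers, against 0.449, 1.34, 0.777 and 0.750 CPM across the knockout livers (log2 fold change 0.69, SE 0.37, adjusted p = 0.346). The groups overlapped for both. The Kupffer cell and macrophage list, summed, was at 118.0 to 251.3 TPM in controls and 204.3 to 352.2 TPM in knockouts, with 10 of 10 genes positive, none passing and a median of 0.53. Its part in the receptor, Fcna and Cfp values was not tested.

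Control 2 stood apart among the controls, and knockout 4 did so for a few members. Control 2 was the highest control for 21 of 36 members, where it was the highest for 31.9% of all genes. Its level over the mean of the other controls had a median of 1.21 and ran from 0 for Cfd to 2.41 for C3. It was above 1.5 for 11 members and under 1/1.5 for 6 (Cfd, C4a, Colec10, Colec11, Cd46 and C7), and control 2 was the lowest control for 7. Without control 2 the log2 fold change was -0.42 for C4b, -0.47 for the C4 sum, -0.43 for Hc, -0.37 for C8b, -0.52 for C9 and -0.058 for Cfi. Knockout 4 was the highest knockout for 13 members (36.1%, against 29.8% of all genes), and its mean absolute deviation over the members, 0.226 on the log2 scale, was close to that of knockouts 1 and 2 (0.227 each). It exceeded the mean of the other knockouts 3.28 times for C6, 2.90 times for Susd4, 2.56 times for C4a and 2.36 times for C8b. Its Cebpa level of 6.24 CPM in whole liver lay within the range of the other knockouts. The cause of the higher values in knockout 4 was not tested.

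**Figure D5:**
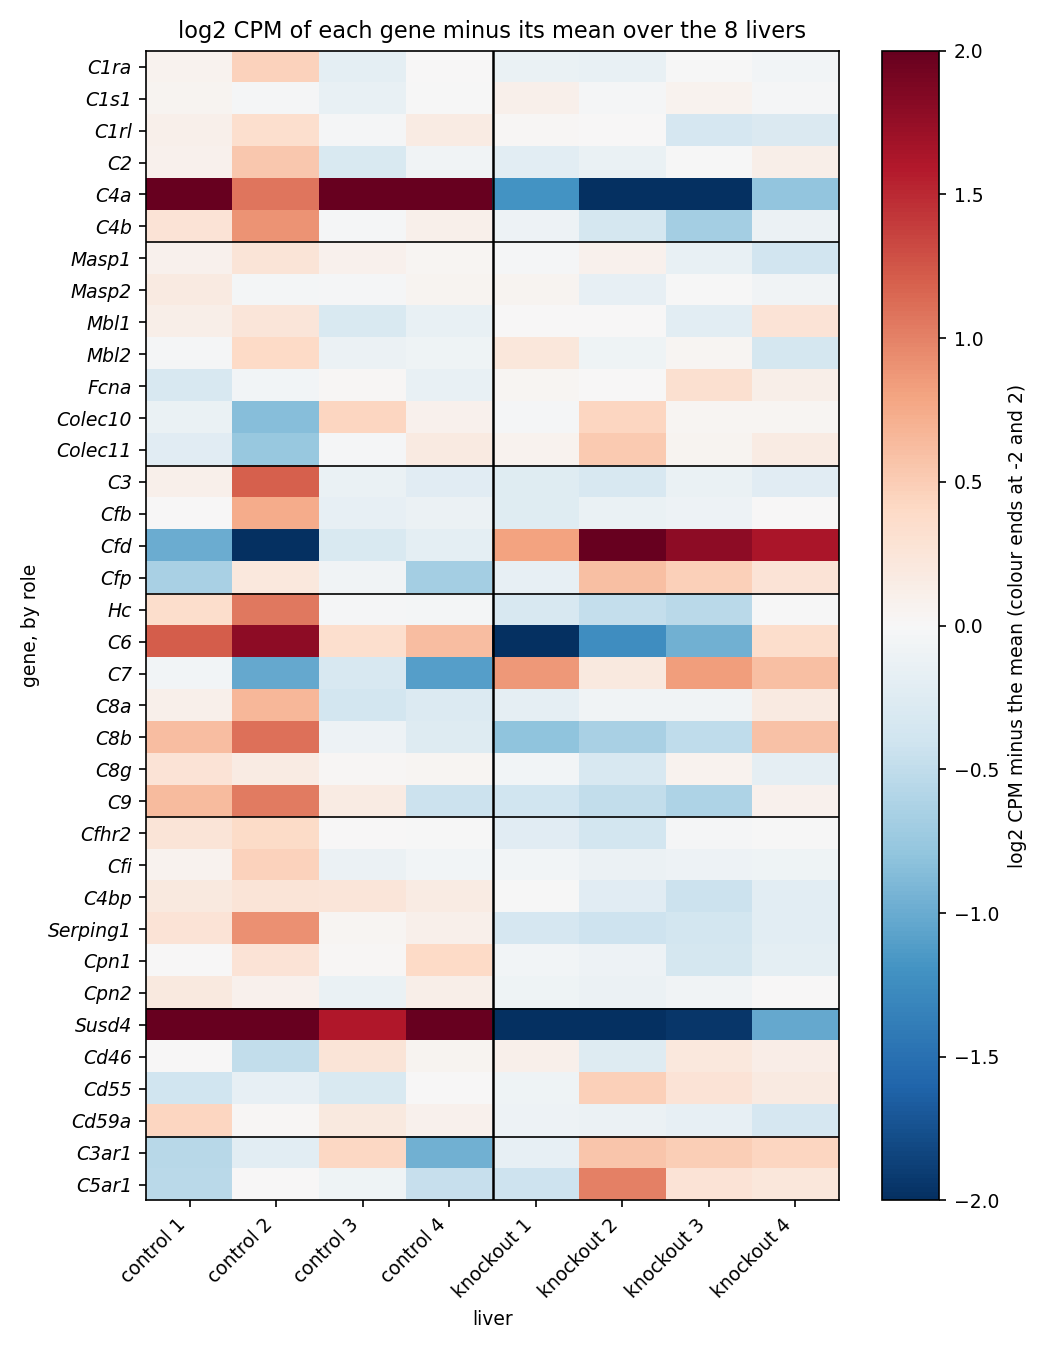
Deviation of each complement gene in each liver from its mean over the 8 livers, on a log2 scale, ordered by role. Control 2 is high for C3, Cfb and most terminal genes. Knockout 4 is above the mean for C6 and C8b, where the other knockouts are below it, and is less low than the other knockouts for Susd4 and C4a.

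Without both of these livers, 4 members passed: C4a, Susd4 and Serping1 lower and Cfd higher, where 3.22% of all genes passed.

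Other genes of the pathway were taken from a separate list, of which 28 were in the table and 22 were tested. Of these, 16 were positive and 6 negative (median 0.21), and 1 passed, where 2.06% of all genes did. Cpb2, a carboxypeptidase that inactivates C3a and C5a and slows clot lysis, was at 250.9, 366.0, 202.8 and 190.6 CPM across the control livers, against 143.2, 101.9, 106.6 and 133.1 CPM across the knockout livers. It fell (log2 fold change -1.06, SE 0.21, edgeR adjusted p = 0.0399), but passed in only 2 of 8 fits with 1 liver left out, those without control 2 or control 4. Besides Cpb2, the chaperone-like inhibitor Clu and the pentraxin Apcs had every knockout below every control in CPM, so 3 of 22 did where 5.92% of all genes did. In TPM the groups of Clu overlapped. The C1q genes, made by macrophages, had log2 fold changes of 0.55 (C1qa), 0.42 (C1qb) and 0.55 (C1qc) and did not pass.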

How the data were processed

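PolyA RNA of 8 livers was sequenced from TruSeq stranded mRNA libraries, per the labels' protocols. Per the submitters' processing notes, the tools were STAR 2.5.1, RSEM 1.2.22, Trimmomatic 0.36, Picard 1.84 and DESeq2, with the build mm10. The sources used here do not give the annotation release or strand setting, and all 55450 gene identifiers matched GENCODE M21. The deposited values used are RSEM expected counts and TPM per gene, per the file headers, with 1 column per liver. The deposited FPKM values, also from RSEM per the file headers, were not used.

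Expected counts were rounded and tested with edgeR 4.0.16 in R 4.3.3: TMM scaling, a filter (minimum count 10, minimum total 15), robust quasi-likelihood F test, and Benjamini-Hochberg adjustment over 13303 genes. SE is the log2 fold change divided by the square root of F. CPM values use TMM-scaled libraries. Single sums used the exact permutation test over 70 splits. DESeq2 1.42.0, limma 3.58.1 on log2(TPM + 1), other scalings and filters, a replicate block, and leaving out livers were alternatives. The sum of C4a and C4b was planned, and the other paralog sums were added after the data were seen. The test was run on simulated data that held no outlying liver, which does not check it for a liver such as control 2. No 2 libraries of a group agreed within sampling noise (chi-square per gene 27.9 to 155.1).

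The members and lists were chosen with earlier results of these data known. Named with full values were members that passed, the smallest adjusted p and highest TPM of each role, the C4 copies, both receptors, and members whose groups did not overlap in CPM. Of the other complement genes, 1 is not reported here by name.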

Additional observations from a re-analysis of the deposited data

Results flagged for a closer look

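Over 72 groups of 4 livers (36 genes in 2 groups), 5 had a liver whose gap to its nearest neighbour exceeded 0.829 of the group's range, Dixon's critical value. Chance marks about 5% of such groups. Control 2 was the high liver for 3 of them: C3 at 14114 CPM, with the other controls at 5278 to 6632, Cfb at 1939 CPM, with the others at 1041 to 1166, and Mbl2 at 263.5 CPM, with the others at 183.2 to 195.7. Knockout 4 was at 269.6 CPM for C8b, with the other knockouts at 103.0 to 125.7. Knockout 2 was at 29.6 CPM for Colec10, a collectin, with the other knockouts at 21.5 to 22.6.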

How the results depend on the processing

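The calls were few and moved with the tool and with single livers. DESeq2 gave 9 members (8 lower, 1 higher) and 858 genes in all, and moved the sum of C4a and C4b past the threshold (-0.69, adjusted p = 0.0237). Leaving out each liver in turn gave 1 to 4 members, 1 to 3 lower and 0 to 1 higher, 108 to 372 genes in all, and 0 to 1 of the other complement genes. Without control 2 and knockout 4 together, 4 members passed, 1 of them higher, and 431 genes in all. C7 passed as 1 higher member under library-size scaling, on log2(TPM + 1) with limma, with no filter on low counts and with a replicate block. With no filter, 1 member was lower, since C4a did not pass. Of the other complement genes, 0 passed on log2(TPM + 1), with no filter or with the block.

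The labels share replicate numbers between groups but do not say that a number marks a litter or day. The correlations of same-numbered livers were 0.207, 0.00904, -0.0243 and -0.0672, and 1 of 4 numbers correlated best with itself. With the replicate block, 176 genes passed in all and 3 members did (C4a, C7 and Susd4).

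Of 695 single-gene alternatives, 642 were counted as unchanged. In the alternative fits this meant the same direction and side of the threshold. As only 2 of 36 members passed in the main fit, for most genes this was the same sign without passing. Among the members, Susd4 alone passed in all 8 fits with 1 liver left out. For the ratio of mean TPM, which has no p-value, unchanged meant a value within the pooled SD, on log2(TPM + 1), of the main value. That ratio had the other sign for Mbl2 (288.1 TPM in controls, 291.7 in knockouts) and Cd46 (0.19 and 0.1875 TPM). Sign reversals in the fits were all small and outside the threshold. Without control 2 they were C2 (0.025), C8a (0.13), Cd46 (-0.068), Colec10 (-0.011) and Mbl2 (0.047). Without control 2 and knockout 4 together, they were C8a (0.057), Cd46 (-0.10) and Mbl2 (0.14). On log2(TPM + 1), they were C8a (0.030), Cd46 (-0.0015) and Mbl2 (0.024). Mbl1 was -0.052 without control 3, -0.017 without control 4 and -0.058 without knockout 4, where Mbl2 was 0.0061. Over the fits without 1 liver, values ran from -0.27 to 0.025 for C2, -0.25 to 0.13 for C8a, -0.068 to 0.20 for Cd46, -0.011 to 0.38 for Colec10, -0.058 to 0.13 for Mbl1 and -0.19 to 0.047 for Mbl2. The causes were not tested. Cd46, C5ar1 and C3ar1 rested on the fewest counts.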
